A study of Mus musculus with 10 samples.

Results

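Krt6a, Krt6b, Krt16 and Krt17 are keratins that skin epithelium raises under stress, and S100a8 and S100a9 are calcium-binding proteins of inflamed skin. Their transcripts were followed through 5 sorted cell populations of the mouse paw pad. The genes were chosen by name, and each was read from the probe sets whose annotation gives its symbol alone. That gave 9 probe sets for 6 genes, of 20380 such probe sets for 12393 genes on the array.

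The populations were gland myoepithelial, duct basal, gland luminal and duct suprabasal cells and palmoplantar epidermis, each purified by fluorescence-activated cell sorting and measured on 2 arrays that the labels call biological replicates. All cells came from paw pads of wild-type CD1 mice, all of them female. The labels name no wound, drug, transgene or age for any array, although the series' title speaks of homeostasis and wound repair. The sorting markers and the number of animals behind an array are not given in the sources used here, and p-values measure only the spread between these arrays.

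Keratins form filaments as obligate pairs of an acidic type I and a basic type II chain. Krt6a and Krt6b are type II chains and Krt16 and Krt17 are type I chains that can partner them. In resting skin of the trunk they are largely kept to hair follicles and other appendages, palms and soles hold them constantly, and wounded or hyperproliferative epidermis induces them. Mutations of the human counterparts cause pachyonychia congenita, in which the skin of the soles thickens and blisters. S100a8 and S100a9 form the heterodimer calprotectin, which binds calcium, zinc and manganese. Neutrophils carry it in bulk, and keratinocytes make it in wounds and psoriasis, where it can act on cells through Tlr4 and the receptor Ager.

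Values are the authors' MAS5 signals, in which all arrays have the same trimmed mean. Differences are given as log2(signal + 12) with their standard error (SE), and folds between populations are on the same scale. A p adjusted over all 9310 genes tested had to be under 0.05 to pass. The median probe set signal was 65.7 and 67.3 on the epidermis arrays, below the 92.7 to 120.1 of the 8 sweat arrays. Arrays of a population correlated at 0.907 in duct suprabasal cells and at 0.963 to 0.981 in the others. Some label markers were brightest where the labels place them. The smooth muscle actin gene Acta2 was so on the myoepithelial arrays and the water channel gene Aqp5 on the luminal arrays. Krt5 and Krt14 were brightest on the duct basal arrays, and Krt1, Krt2 and Krt10 on the epidermis arrays. Others were not. The luminal marker Best2 read 1725.5 and 2435.3 on the luminal arrays, against 5146.8 and 3076.4 on the duct suprabasal arrays. Foxa1, of the same list, read 794.4 and 830.4, against 2038.4 and 781.4. The basal marker Trp63 read 3631.4 and 3004.3 on the duct basal arrays, against 3806.9 and 4737.8 on the myoepithelial arrays. Duct suprabasal array 2 stood apart, with a summed signal of 6 fibroblast markers of 86061.7, against 16256.2 on array 1, and of 8 endothelial markers of 14412.0, against 2999.9. That 2999.9 was itself above the endothelial sum of every array of the other populations, at most 545.1. Myoepithelial array 1 had a summed signal of 7 luminal markers of 17631.4, against 7882.3 on array 2. This sum was 42164.8 and 19539.8 on the duct suprabasal arrays and 63314.3 and 78111.9 on the luminal arrays.

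All 6 genes differed among the populations in limma's F test, as did 65.8% of all genes tested, and they did so in 3 ways. Krt6b, Krt16, S100a8 and S100a9 were brightest in epidermis and lower in each of the 4 sweat populations. Krt6a was bright in epidermis and in both duct layers and low in both layers of the gland coil. Krt17 was brightest in duct basal and myoepithelial cells, the outer layers of duct and gland. Krt16, S100a8 and S100a9 lay above the level of the low-signal filter mainly where they were bright. Krt16 did so on the 6 duct and epidermis arrays, S100a8 on the epidermis arrays and duct suprabasal array 2, and S100a9 on the epidermis arrays and luminal array 2. Genes that enter the test this way are more likely to differ, so the counts below describe them and support nothing further.

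**Figure D1:**
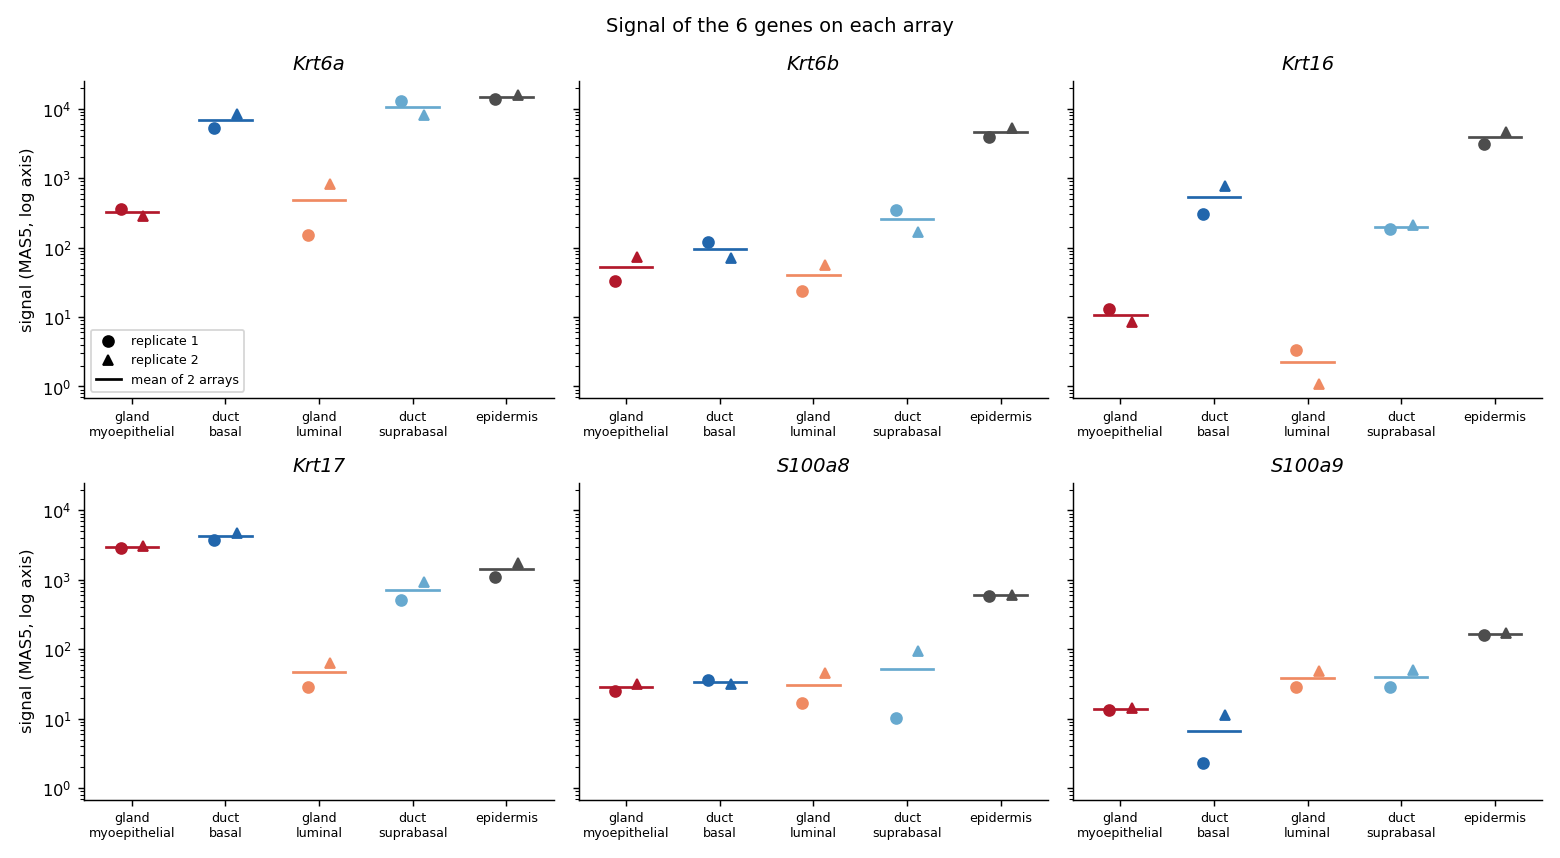
Signal of the 6 genes on each of the 10 arrays, on a log axis, by population. Circles and triangles are replicates 1 and 2 and bars are means of 2 arrays. Krt6a stays high in both duct layers, and Krt17 peaks in myoepithelial and duct basal cells. All genes but Krt17 are brightest on the epidermis arrays, Krt6a by a narrow gap.

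Krt6a, the more widely expressed of the type II stress keratins, separated duct from gland coil. Its signal was 365.5 and 282.6 on the myoepithelial arrays, 5351.4 and 8284.7 on the duct basal arrays, 151.9 and 810.8 on the luminal arrays, 13059.6 and 8107.1 on the duct suprabasal arrays, and 13600.0 and 15528.1 on the epidermis arrays. Every duct array lay above every gland array, and the lower epidermis array lay just above the highest duct array. Krt6a was lower in myoepithelial cells than in duct basal cells by a log2 difference of -4.32 (SE 0.61, adjusted p = 0.00114). In luminal cells it was lower than in duct suprabasal cells by -4.81 (adjusted p = 0.00193). The 2 duct layers overlapped and did not pass (-0.63, SE 0.61, adjusted p = 0.517, duct basal minus suprabasal). Nor did the 2 gland layers (-0.14, adjusted p = 0.889, myoepithelial minus luminal). The luminal arrays were 5.34-fold apart, and without luminal replicate 1 the myoepithelial cells were lower by -1.30 (adjusted p = 0.0437), the only pass in 21 alternatives, whose p ranged up to 0.982.

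Against epidermis, Krt6a was 43.6-fold lower in myoepithelial cells (log2 difference -5.45, SE 0.61, adjusted p = 0.000103) and 39.6-fold lower in luminal cells (-5.31, adjusted p = 0.000137). The difference was -1.12 in duct basal cells (SE 0.61, adjusted p = 0.187, 95% interval -2.50 to 0.25). In duct suprabasal cells it was -0.50 (adjusted p = 0.537, 95% interval -1.87 to 0.88). A missed threshold does not show that the levels were alike. The duct basal difference passed without luminal replicate 1 or without luminal replicate 2 (adjusted p = 0.0237 in each) and when the duct basal and epidermis arrays were fitted alone (0.00326), which were 3 of 21 alternatives whose p ranged up to 0.514.

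Krt6b, the close paralogue that lies beside Krt6a in the GRCm38.p6 annotation, did not share the high duct level. Its signal was 32.6 and 73.4 on the myoepithelial arrays, 121.3 and 71.8 on the duct basal arrays, 23.7 and 56.1 on the luminal arrays, 344.2 and 170.0 on the duct suprabasal arrays, and 3863.3 and 5315.2 on the epidermis arrays. The epidermis arrays lay far above all sweat arrays, and among the sweat populations the duct suprabasal arrays were highest. Krt6b was 43.0-fold lower in duct basal cells than in epidermis (-5.43, SE 0.48, adjusted p = 8.20e-05), where Krt6a had not passed. It was 17.8-fold lower in duct suprabasal cells (-4.16, adjusted p = 0.000198), 73.6-fold lower in myoepithelial cells (-6.20, adjusted p = 1.23e-05) and 92.2-fold lower in luminal cells (-6.53, adjusted p = 1.17e-05). How far the 2 genes' differences from epidermis depart from each other was not tested, and neither was cross-hybridisation between their closely related transcripts.

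Within the sweat gland Krt6b was lower in myoepithelial than in duct suprabasal cells (-2.04, adjusted p = 0.0183) and lower in luminal than in duct suprabasal cells (-2.37, adjusted p = 0.0128). The myoepithelial call was lost without myoepithelial replicate 1 (-1.58, adjusted p = 0.101) and without duct suprabasal replicate 1 (-1.56, adjusted p = 0.0745). The luminal call was lost without luminal replicate 1 (-1.90, adjusted p = 0.1002). Duct basal and suprabasal cells did not pass (-1.27, adjusted p = 0.102) although their arrays did not overlap, and they did pass without duct suprabasal replicate 2 (-1.75, adjusted p = 0.0416).

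Krt6a was measured by 2 further probe sets. The one with the suffix _a_at read 115.7 and 66.5 on the myoepithelial arrays, 1288.0 and 1912.4 on the duct basal arrays, 70.0 and 228.9 on the luminal arrays, 3857.4 and 2245.5 on the duct suprabasal arrays, and 4489.5 and 5552.4 on the epidermis arrays. It had the sign of the representing probe set in 10 of 10 pairs of populations. For the other, whose suffix _x_at marks probes shared with other transcripts, this was so in 9 of 10. Across the 10 arrays the 3 probe sets correlated at 0.993 to 0.995, a description over arrays that share populations.

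Krt16, the type I partner of Krt6 in stressed epidermis, marked epidermis and, at a lower level, the duct. Its signal was 13.2 and 8.4 on the myoepithelial arrays, 302.5 and 759.8 on the duct basal arrays, 3.4 and 1.1 on the luminal arrays, 187.0 and 208.7 on the duct suprabasal arrays, and 3085.9 and 4655.9 on the epidermis arrays. No 2 populations overlapped, and all 4 gland arrays lay below the filter level of 43.4 to 52.8. Krt16 was 7.72-fold lower in duct basal cells than in epidermis (-2.95, SE 0.42, adjusted p = 0.000858) and 18.1-fold lower in duct suprabasal cells (-4.18, adjusted p = 0.0001004). In myoepithelial cells the log2 difference from epidermis was -7.39 and in luminal cells -8.06 (adjusted p = 2.63e-06 and 2.27e-06). At gland signals so near or below the added 12, such differences understate the ratio of signals and give no measure of what remains in the gland.

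Between gland and duct, Krt16 was lower in myoepithelial than in duct basal cells (-4.44, adjusted p = 0.000107) and lower in luminal than in duct suprabasal cells (-3.88, adjusted p = 0.000986). Duct basal cells had a mean of 531 ± 323, against 198 ± 15.3 in duct suprabasal cells (SD, n = 2 each), and this difference did not pass (1.23, SE 0.42, adjusted p = 0.0745). Without duct basal replicate 1 it did (1.88, adjusted p = 0.0276), and it passed in 2 of 21 alternatives in all, with p ranging up to 0.401.

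Krt17, a type I keratin of basal and myoepithelial cells in glands and of the hair follicle, had an order of its own. Its signal was 2836.8 and 3122.0 on the myoepithelial arrays, 3804.4 and 4798.4 on the duct basal arrays, 28.4 and 64.3 on the luminal arrays, 516.5 and 930.7 on the duct suprabasal arrays, and 1095.8 and 1728.0 on the epidermis arrays. Here too the populations did not overlap, and all 4 arrays of the outer layers lay above both epidermis arrays. Duct basal cells were higher than epidermis (1.63, SE 0.37, adjusted p = 0.00942), and so were myoepithelial cells (1.11, SE 0.37, adjusted p = 0.0324). In luminal cells Krt17 was 25.0-fold lower than in epidermis (-4.64, adjusted p = 1.94e-05). Duct suprabasal cells had a mean of 724 ± 293, against 1412 ± 447 in epidermis (SD, n = 2 each), and did not pass (-0.98, adjusted p = 0.0575).

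The Krt17 excess over epidermis depended on single arrays. Without epidermis replicate 1, the dimmer of its pair, neither the duct basal difference (1.30, adjusted p = 0.0837) nor the myoepithelial difference (0.78, adjusted p = 0.207) passed. The duct basal call was also lost without duct basal replicate 2 (1.46, adjusted p = 0.0568) and held in the other 19 of 21 alternatives. The myoepithelial call was lost without myoepithelial replicate 1 (adjusted p = 0.0864) or replicate 2 (0.120), and with arrays centred on their median (0.53, adjusted p = 0.281). It held in 16 of 21 alternatives, with p between 0.00270 and 0.281 over all of them. The duct suprabasal difference passed in 8 of 21, among them the fits without duct suprabasal replicate 2 (-1.39, adjusted p = 0.0170), without luminal replicate 1 (-0.98, adjusted p = 0.0416) and without luminal replicate 2 (adjusted p = 0.0417).

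Krt17 followed the layers of gland and duct. It was 53.8-fold higher in myoepithelial than in luminal cells (5.75, SE 0.37, adjusted p = 2.33e-05) and 6.07-fold higher in duct basal than in duct suprabasal cells (2.60, SE 0.37, adjusted p = 0.00332). The gland difference exceeded the duct difference by 3.15 (SE 0.53, adjusted p = 0.00554), in a test that 10.0% of all genes passed in this direction. In the same limma test none of the 5 other genes passed, and Krt6b alone of them had an unadjusted p under 0.05 (0.0424). Both differences and their excess passed in all alternatives run for them, with the excess between 1.99 and 3.61 in 20 alternatives. The outer layers themselves did not pass (-0.52, adjusted p = 0.355, 95% interval -1.36 to 0.32, myoepithelial minus duct basal). Between the inner layers Krt17 was lower in luminal than in duct suprabasal cells (-3.67, adjusted p = 0.000876), a call lost when those 4 arrays were fitted alone (adjusted p = 0.0619).

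**Figure D2:**
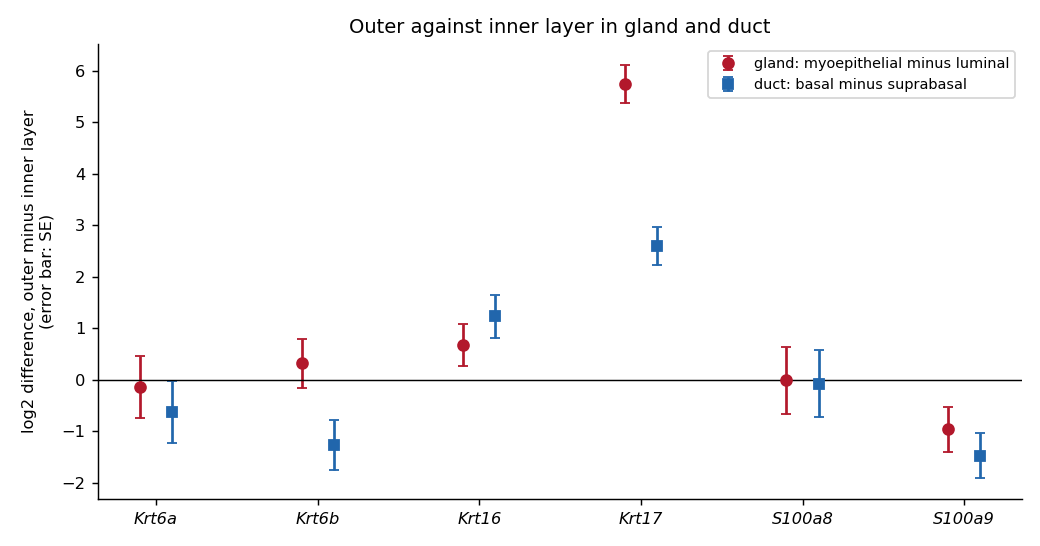
Log2 difference between outer and inner layer for each gene, with SE bars, in the gland (circles, myoepithelial minus luminal) and in the duct (squares, duct basal minus suprabasal). Krt17 is at 5.75 in the gland and 2.60 in the duct, and the 5 other genes lie between -1.48 and 1.23.

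The second Krt17 probe set was dim. It read 84.4 and 125.3 on the myoepithelial arrays, 92.0 and 100.5 on the duct basal arrays, 8.1 and 0.8 on the luminal arrays, 3.2 and 35.2 on the duct suprabasal arrays, and 21.1 and 2.4 on the epidermis arrays. The outer layers were again highest, and only their 4 arrays were above the filter level. The sign matched in 8 of 10 pairs of populations, and the exceptions were duct suprabasal against epidermis and myoepithelial against duct basal, neither of which had passed. On this probe set the layer difference was 2.84 in the gland and 2.01 in the duct, and the gap between them was not tested. A further probe set names Krt17 together with Krt14 and was left out by the rule.

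**Figure D3:**
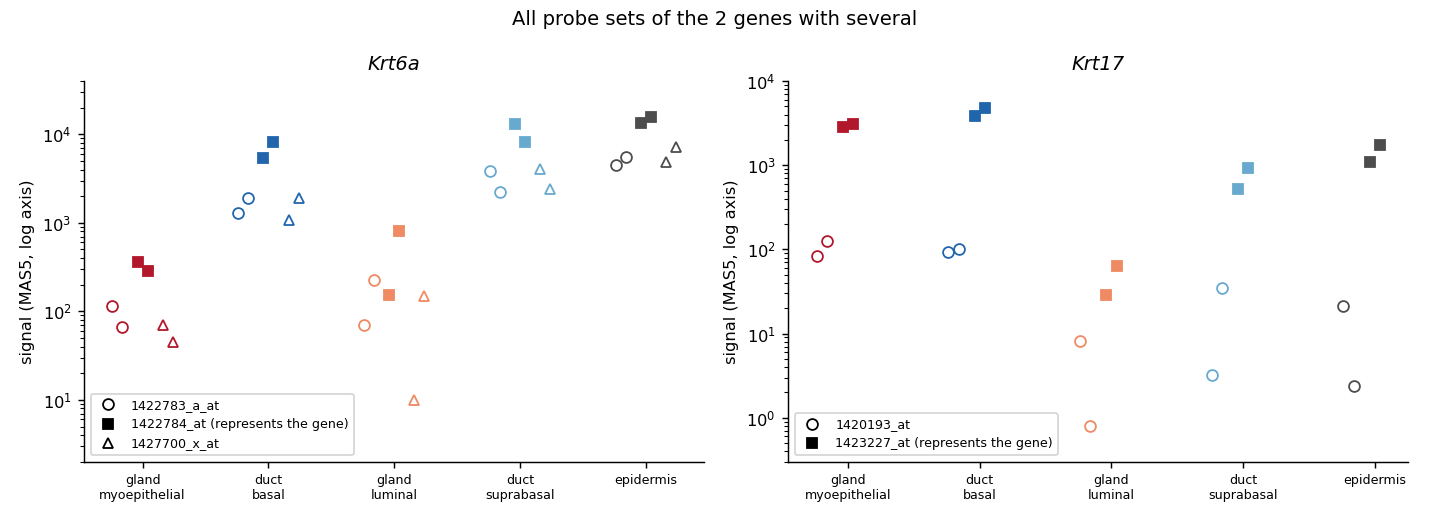
Signal of every probe set of Krt6a (left) and Krt17 (right) on the 10 arrays, on a log axis, by population. Filled squares are the probe sets that represent the genes and open symbols the others. The 3 Krt6a probe sets have the same order of population means, and the dim Krt17 probe set is highest in myoepithelial and duct basal cells.

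S100a8 and S100a9, neighbours in the GRCm38.p6 annotation that encode the 2 chains of calprotectin, were brightest in epidermis. The 250 bases before their start sites are given as RefSeq lists them in that build. None of the keratin genes was among the promoter sequences used here. S100a8 lies on the plus strand (chr3:90668821-90669070) and S100a9 on the minus strand (chr3:90695722-90695971), each written 5′ to 3′. Capitals mark a TATA box (TATAAA, searched on the gene's strand) before S100a8, and a match to the C/EBP motif TTGCNNAA before S100a9.
S100a8 promoter: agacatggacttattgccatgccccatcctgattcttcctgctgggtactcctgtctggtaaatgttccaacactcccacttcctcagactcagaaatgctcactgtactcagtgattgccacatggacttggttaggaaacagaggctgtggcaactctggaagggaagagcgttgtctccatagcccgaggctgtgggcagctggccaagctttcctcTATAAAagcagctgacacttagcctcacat
S100a9 promoter: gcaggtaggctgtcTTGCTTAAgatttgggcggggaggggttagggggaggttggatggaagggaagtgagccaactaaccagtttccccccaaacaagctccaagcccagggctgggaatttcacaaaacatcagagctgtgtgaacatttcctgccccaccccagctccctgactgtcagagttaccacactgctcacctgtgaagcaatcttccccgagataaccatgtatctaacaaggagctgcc
Of the 32851 promoters of this length, 7.59% hold TATAAA and 9.56% hold TTGCNNAA on either strand. The AP-1 motif TGANTCA, held by 6.75%, was not among the letters of either window. The TATA box lay 30 to 25 bases before the S100a8 start and the other match 236 to 229 bases before the S100a9 start. These matches are letters only and were not tied to any value here.

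S100a8 had a signal of 25.2 and 31.4 on the myoepithelial arrays, 36.5 and 31.5 on the duct basal arrays, 16.8 and 44.9 on the luminal arrays, 10.1 and 94.1 on the duct suprabasal arrays, and 589.1 and 613.2 on the epidermis arrays. The epidermis arrays lay far above all sweat arrays, and duct suprabasal array 2, the array with the brightest fibroblast and endothelial markers, was the highest of the 8. Whether that array's other cells bear on its S100a8 signal was not tested. S100a8 was lower in myoepithelial cells than in epidermis by a log2 difference of -3.93 (SE 0.65, adjusted p = 0.000944). It was lower by -3.74 in duct basal cells (adjusted p = 0.00256), by -3.92 in luminal cells (adjusted p = 0.00106) and by -3.66 in duct suprabasal cells (adjusted p = 0.00188). All sweat arrays but duct suprabasal array 2 lay below the filter level, so these differences move with the added number (-4.37 with 1 and -3.09 with 48 in myoepithelial cells) and do not measure what remains there. The 6 pairs among sweat populations had adjusted p values between 0.822 and 0.992, at signals where a difference could not be detected. Its probe set carries a suffix for probes shared by several transcripts.

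For S100a9 the signal was 13.2 and 14.1 on the myoepithelial arrays, 2.3 and 11.2 on the duct basal arrays, 28.9 and 49.1 on the luminal arrays, 28.7 and 51.1 on the duct suprabasal arrays, and 161.6 and 171.9 on the epidermis arrays. The epidermis arrays again lay above the other 8, of which only luminal array 2 was above the filter level, so the order among the sweat populations is one of signals that may be background. S100a9 was lower in duct basal cells than in epidermis (-3.29, SE 0.44, adjusted p = 0.000621) and lower in myoepithelial cells (-2.80, adjusted p = 0.000667). These sizes depend on the added number, and the duct basal difference was -4.72 with 1 and -1.98 with 48. S100a9 was lower by -1.84 in luminal cells (adjusted p = 0.00737) and by -1.82 in duct suprabasal cells (adjusted p = 0.00836). Without epidermis replicate 2 neither of the last 2 passed (adjusted p = 0.0535 and 0.0571), and without luminal replicate 1 the luminal difference did not (-1.55, adjusted p = 0.0627).

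In duct basal cells the S100a9 signal passed as lower than in duct suprabasal cells (-1.48, adjusted p = 0.0488) and in luminal cells (-1.46, adjusted p = 0.0282). Of the 6 arrays involved, 5 lay below the filter level, so neither difference can be read as one of transcript level, and both calls depended on single arrays. That against duct suprabasal cells passed in 5 of 21 alternatives, with p between 0.0272 and 0.215, and was lost, among others, without duct basal replicate 1 (-1.13, adjusted p = 0.179), duct suprabasal replicate 2 (-1.16, adjusted p = 0.137) or any of the epidermis, myoepithelial or luminal arrays. The call against luminal cells passed in 14 of 21 and was lost without duct basal replicate 1 (-1.11, adjusted p = 0.143), either luminal array (adjusted p = 0.0569 and 0.171) or either epidermis array (0.0544 and 0.0552). In luminal against duct suprabasal cells the difference was -0.02 (adjusted p = 0.981).

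Against epidermis as a whole, Krt17 alone of the 6 genes passed as higher in any sweat population. In myoepithelial cells 1 gene was higher and 5 were lower, where 51.6% of all genes tested passed. In duct basal cells 1 was higher and 4 were lower, against 34.0% of all genes. All 6 were lower in luminal cells, where 45.3% of all genes passed and 19.2% were lower. In duct suprabasal cells 4 were lower, where 46.0% passed and 16.7% were lower. Krt6b, Krt16, S100a8 and S100a9 were lower in all 4 sweat populations, which held for 6.51% of all genes. Both epidermis arrays were above all 8 sweat arrays for 5 of the 6 genes, as for 14.8% of all genes, and for Krt6a the gap was narrow (13059.6 on the highest sweat array and 13600.0 on the lower epidermis array). These 4 comparisons share the epidermis arrays.

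**Figure D4:**
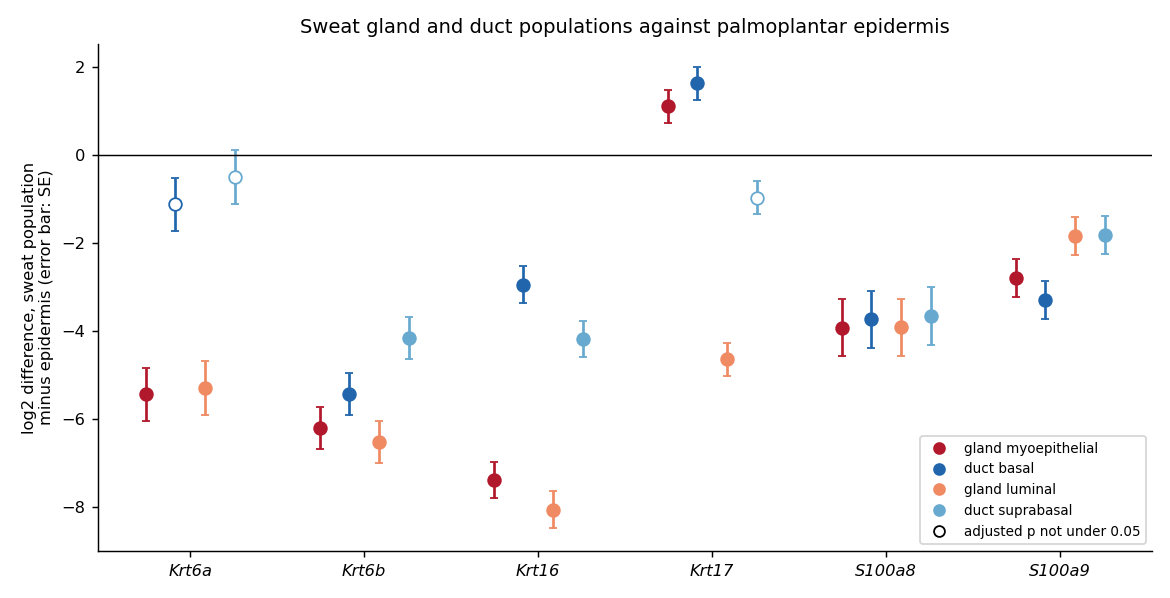
Log2 difference of each gene between a sweat population and palmoplantar epidermis, with SE bars. Open points did not pass an adjusted p of 0.05. Krt17 lies above 0 in myoepithelial (1.11) and duct basal cells (1.63), Krt6a is at -1.12 and -0.50 in the duct basal and suprabasal layers, and the other points lie between -8.06 and -0.98.

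The median difference from epidermis over all genes was 0.28 in myoepithelial, 0.24 in duct basal, 0.16 in luminal and 0.26 in duct suprabasal cells. Over the 6 genes it was -4.69, -3.12, -4.98 and -2.74 in the same order of populations. With quantile normalization the median over all genes was between -0.11 and 0.01, and with arrays centred on their median it was between -0.49 and -0.26. These shifts are small beside most differences of the 6 genes but not beside those of Krt17 over epidermis, which was higher by 1.60 in duct basal and 1.07 in myoepithelial cells after quantile normalization and by 1.13 and 0.53 after centring. The share of passing genes that were higher than in epidermis moved with the scaling. It was 61.4% in myoepithelial, 67.7% in duct basal, 57.6% in luminal and 63.8% in duct suprabasal cells as deposited. After quantile normalization it was 47.9%, 56.7%, 48.9% and 47.4%, and after centring 36.1%, 35.9%, 37.6% and 29.4%.

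Within the sweat gland Krt6a and Krt16 were lower in both coil populations than in either duct layer, while Krt6b and Krt17 passed in some of these 4 pairs or ran both ways. In duct basal against luminal cells 3 genes were higher (Krt6a, Krt16 and Krt17) and S100a9 was lower, where 35.4% of all genes passed. In luminal against duct suprabasal cells the 4 keratins were lower, where 15.2% of all genes passed and 10.2% were lower. In myoepithelial against duct suprabasal cells Krt17 was higher and the 3 other keratins were lower, against 17.4% of all genes. Krt6a and Krt16 were lower in myoepithelial than in duct basal cells, where 24.3% of all genes passed and 12.3% were lower. Layers were compared within duct and gland too. Krt17 was higher and S100a9 lower in duct basal against duct suprabasal cells (16.4% of all genes). Both S100a9 calls compare signals mostly below the filter level and cannot be read as differences of transcript level. That against duct suprabasal cells passed in 5 of 21 alternatives and that against luminal cells in 14 of 21. Between myoepithelial and luminal cells only Krt17 passed, where it was higher (31.1% of all genes passed and 16.5% were higher). Higher genes made up 48.8% of the passing genes between the duct layers as deposited and 69.1% after centring, 32.6% and 62.7% in luminal against duct suprabasal cells, and 46.8% and 57.2% in myoepithelial against duct suprabasal cells.

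The 6 genes did not share a single pattern across the arrays. Krt6a and Krt16 correlated at 0.89 over the 10 arrays, Krt6b and S100a8 at 0.88, Krt6b and Krt16 at 0.86 and S100a8 and S100a9 at 0.84. Krt17 correlated with the others between -0.27 (S100a9) and 0.47 (Krt16), although it lies beside Krt16 in the annotation. These are descriptions over arrays that share populations.

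Each gene had its own nearest patterns among the 9310 genes. Most like Krt17 were Krt5 (r = 0.990), the basal type II keratin, Col17a1 (0.974), a collagen of hemidesmosomes, and, at the fifth rank, Trp63 (0.970), the transcription factor of stratified epithelia. Krt5 read 10007.2 and 12727.1 on the myoepithelial arrays, 24115.9 and 26012.8 on the duct basal arrays, 155.8 and 333.9 on the luminal arrays, 1652.4 and 5105.0 on the duct suprabasal arrays, and 6769.7 and 11346.5 on the epidermis arrays. The order of population means is the same as that of Krt17. For Krt5, unlike Krt17, the myoepithelial and epidermis arrays overlapped, and that difference did not pass in the limma fit (0.36, adjusted p = 0.576). Closest to Krt6a were Calml3 (0.985), a calmodulin-like gene of differentiating keratinocytes, and Krtdap (0.983), a secreted keratinocyte protein gene. Closest to Krt6b were Casp14 (0.982), a caspase of cornification, and Tgm1 (0.981), the crosslinking enzyme of the cornified envelope. Krt16 was closest to Bnipl (0.991), the connexin gene Gjb5 (0.990) and Krt10 (0.984), the type I keratin of differentiating epidermis. The closest patterns to the S100 genes were those of Ffar2 (0.964), a fatty acid receptor gene, for S100a8 and Rab11a (0.965), a vesicle traffic gene, for S100a9. Nearly all sweat arrays lay below the filter level for both S100 genes, so these r values include signals that may be background.

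Genes of epidermal differentiation were mostly lower in the sweat populations. In limma's test none of 13 was higher than in epidermis, at an unadjusted p under 0.05 either, and 12 were lower in myoepithelial, 10 in duct basal, 13 in luminal and 11 in duct suprabasal cells. In either direction 51.6%, 34.0%, 45.3% and 46.0% of all genes passed in the same order. The summed signal of 14 differentiation genes was 1882.9 and 1808.4 on the myoepithelial, 35792.5 and 62746.6 on the duct basal, 1075.2 and 2041.2 on the luminal, 33094.6 and 36582.6 on the duct suprabasal and 166961.0 and 157886.7 on the epidermis arrays. Both duct layers lay between gland and epidermis in this sum. Krtdap and Calml3, like Krt6a, did not pass in duct basal (-0.79 and -0.79) or duct suprabasal cells (-1.21 and -1.24). In these bulk samples fewer cells of a type and less RNA per cell cannot be told apart, so the part of differentiating cells in these differences was not tested.

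Other keratins went several ways. Of 16 tested, 5 were higher and 6 lower in myoepithelial cells than in epidermis, 8 higher and 4 lower in duct basal, 4 higher and 6 lower in luminal, and 6 higher and 5 lower in duct suprabasal cells. Among all genes tested, 51.6%, 34.0%, 45.3% and 46.0% passed in the same order. Krt8, Krt18 and Krt19, keratins of simple epithelia, were higher in all 4, with Krt8 at 9.67 in luminal cells. The myoepithelial arrays 1 and 2 were far apart in Krt18 (3744.3 and 444.1) and Krt19 (2426.5 and 255.2), but not in Krt8 (7192.0 and 6301.9). Krt1, Krt2, Krt10 and Krt80 were lower in all 4. Krt14, the neighbour of Krt16 and the basal partner of Krt5, did not pass in duct basal (0.67) or duct suprabasal cells (0.03) and was lower in myoepithelial (-1.26) and luminal cells (-4.13), a different course from that of Krt17.

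Further S100 genes went both ways too. Of 10 tested, 3 were higher and 3 lower in myoepithelial cells than in epidermis, 4 higher and 2 lower in duct basal, 3 higher and 3 lower in luminal, and 5 higher and 3 lower in duct suprabasal cells. The share of all genes that passed was 51.6%, 34.0%, 45.3% and 46.0% in the same order. S100a14, a keratinocyte S100 gene, was lower in all 4, by -7.78 in myoepithelial, -2.74 in duct basal, -7.31 in luminal and -3.49 in duct suprabasal cells. S100a16 was lower in all 4 too. S100b was higher in all 4, by 4.69, 4.42, 7.96 and 6.34 in the same order. It read 2706.3 on myoepithelial array 1, the array of that pair with the brighter luminal markers, and 452.7 on array 2.

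Genes that wounded or hyperproliferative epidermis induces did not move together. Of 19 tested, 5 were higher and 11 lower in myoepithelial cells than in epidermis, 5 higher and 7 lower in duct basal, 4 higher and 11 lower in luminal, and 5 higher and 7 lower in duct suprabasal cells. The share of all genes passing was 51.6%, 34.0%, 45.3% and 46.0% in the same order. Sprr1b, a cornified envelope gene, was lower in all 4, by -9.08, -6.00, -9.49 and -7.05 in that order. The connexin genes Gjb2 and Gjb6, the interleukin-1 antagonist gene Il1rn and the cystatin gene Stfa3 were also lower in all 4. Sprr1a, a paralogue of Sprr1b, was higher in duct suprabasal cells (2.05), lower in myoepithelial (-2.67) and luminal cells (-1.78), and did not pass in duct basal cells (0.18). Slpi, a protease inhibitor gene, was higher in myoepithelial (1.85), duct basal (3.48) and duct suprabasal cells (2.29). Lcn2, an iron-scavenging lipocalin gene, was higher in myoepithelial (4.74), luminal (2.05) and duct suprabasal cells (2.48).

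Genes reported to regulate stress keratins went both ways against epidermis. Of 17 tested, 9 were higher and 2 lower in myoepithelial, 11 higher and 1 lower in duct basal, 7 higher and 5 lower in luminal, and 6 higher and 2 lower in duct suprabasal cells. Over all genes tested, 51.6%, 34.0%, 45.3% and 46.0% passed in the same order. Among all passing genes in these comparisons, 57.6% to 67.7% were higher as deposited and 29.4% to 37.6% after centring. Gli2, a hedgehog effector reported for Krt17, was higher in myoepithelial (2.31) and duct basal cells (2.79), lower in luminal cells (-2.43) and did not pass in duct suprabasal cells (-0.21). Trp63 was higher in myoepithelial cells (0.85), did not pass in duct basal cells (0.49) and was lower in luminal (-5.35) and duct suprabasal cells (-2.23). Klf4, a factor of barrier formation, was lower in myoepithelial (-1.28) and luminal cells (-4.15) and did not pass in either duct layer. The AP-1 gene Fos was higher in all 4, by 4.56 in myoepithelial, 4.61 in duct basal, 4.24 in luminal and 3.62 in duct suprabasal cells.

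Fos also belongs to the early response genes that tissue dissociation induces. The summed signal of 14 such genes was 77764.5 to 170707.8 on the 8 sweat arrays, against 22793.6 and 31614.0 on the epidermis arrays. Of the 14 genes, 12 were higher in myoepithelial, 13 in duct basal, 13 in luminal and 10 in duct suprabasal cells than in epidermis. Over all genes tested, 51.6%, 34.0%, 45.3% and 46.0% passed in the same order. Of these, 57.6% to 67.7% were higher as deposited and 29.4% to 37.6% after centring. The stress keratins brightest in epidermis ran opposite to the 14 early response genes, whose part in the keratin levels was not tested.

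The receptors of calprotectin were tested for 5 of 6 genes. Against epidermis 2 were higher and 1 lower in myoepithelial cells, 1 was lower in duct basal cells, 2 were higher in luminal cells, and 3 were higher and 1 lower in duct suprabasal cells. Among all genes 51.6%, 34.0%, 45.3% and 46.0% passed in the same order. Tlr4, the best known of the receptor genes, was higher in luminal (1.16) and duct suprabasal cells (1.59), did not pass in myoepithelial (0.20) or duct basal cells (-0.97), and peaked at a population mean of 133.0. On duct suprabasal arrays 1 and 2 Tlr4 read 93.7 and 172.2, Cd36 207.6 and 574.3, and Cd14 276.5 and 568.0. Array 2 had the brightest fibroblast and endothelial markers, and the part of such cells in these signals was not tested. Bsg, which encodes basigin, was lower in myoepithelial (-1.68), duct basal (-0.96) and duct suprabasal cells (-0.86).

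Markers of neutrophils, cells rich in S100a8 and S100a9, were dim on all arrays. The summed signal of 9 neutrophil markers was 76.2 to 214.7 on the sweat arrays and 210.3 and 123.1 on the epidermis arrays, and no single marker exceeded 91.3. Only Elane and Csf3r passed the filter, and in limma's test neither passed between any 2 populations, where 2 comparisons had an unadjusted p under 0.05. Broader myeloid and leukocyte markers were brightest on the myoepithelial arrays. Their summed signal over 13 genes was 6034.6 and 8154.8 on the myoepithelial arrays, against 341.8 and 385.5 on the epidermis arrays. In myoepithelial cells 12 of 12 tested were higher than in epidermis, where 51.6% of all genes passed. As 7 of the 9 neutrophil markers did not pass the filter, the part of neutrophils or other leukocytes in the S100a8 and S100a9 signals was not tested. Hair follicle markers, whose cells can carry Krt6 and Krt17, were low. Of 3 tested 1, Krt75, was higher in duct basal cells than in epidermis, where 34.0% of all genes passed.

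**Figure D5:**
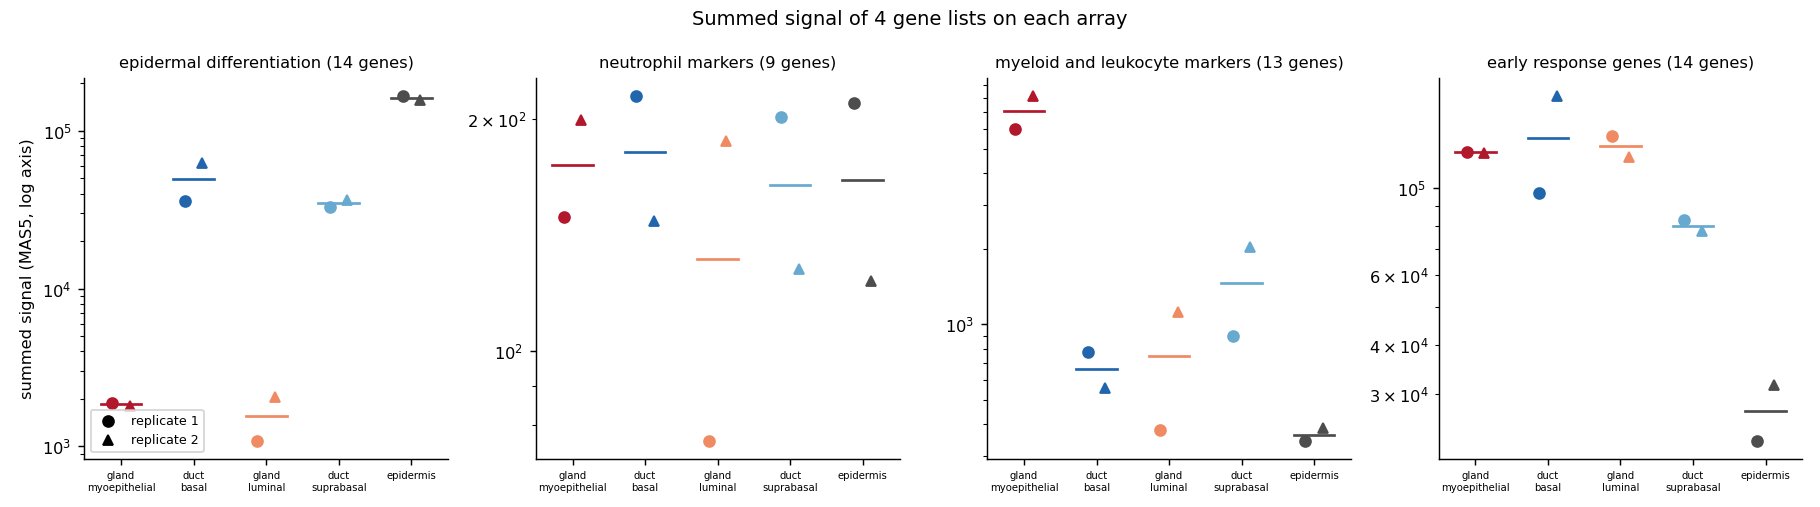
Summed signal of 4 gene lists on each array, on log axes that differ between panels, by population, with circles and triangles for replicates 1 and 2 and bars for their mean. Epidermal differentiation genes are highest on the epidermis arrays (166961.0 and 157886.7), neutrophil markers stay between 76.2 and 214.7, myeloid markers peak on the myoepithelial arrays, and early response genes are lowest on the epidermis arrays.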

How the data were processed

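Transcripts of 5 sorted populations were measured on 10 arrays, 2 each. Per the labels' protocols, total RNA was extracted with Trizol and labelled by the standard Affymetrix procedure. Per the submitters' processing notes, the deposited intensity values are MAS5 signal on a linear scale (0.1 to 72213.2), and no detection calls were used here. With 2% of the values trimmed from each end, each array had a mean of 500.0.

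Of 22690 probe sets, 64 controls were left out, 691 named several genes, and 1555 were not listed in the gene table. RefSeq identifiers matched 20351 of the 20380 single-gene probe sets and changed 0 symbols. Where a gene had several probe sets, the one of highest mean signal stood for it. A pseudocount of 12, which is the 20th percentile of the whole table, was added before taking log2. Genes entered the test when 2 or more of the 10 arrays put them above that array's 40th percentile, and 9310 genes did, the 6 members among them.

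One linear model of all 10 arrays was fitted with limma 3.58.1 in R 4.3.3, with variances that follow the mean signal, for 10 pairs of populations and an F test, and checked on simulated data. P-values were adjusted by Benjamini and Hochberg over all genes tested. The test of the gland against the duct layer difference was added after the data were seen. The members and lists were chosen with earlier results of these data known. All 6 members are named with every array, and of other lists those with the 6 highest population means or past the threshold in more than 5 of 10 pairs. Likeness is Pearson's r over 10 arrays. Alternatives were the pseudocount (1 and 48), scaling, filter, probe set choice, variance trend, replicate block, arrays in the fit and each array left out. The number of arrays limits the precision.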

Additional observations from a re-analysis of the deposited data

Results flagged for a closer look

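Krt17 was flagged because its layer difference was not the same in gland and duct. The difference between outer and inner layer was 5.75 (SE 0.37) in the gland, myoepithelial minus luminal, and 2.60 (SE 0.37) in the duct, duct basal minus duct suprabasal, on the log2 scale. Tested directly in the limma fit, the gland difference exceeded the duct difference by 3.15 (SE 0.53, adjusted p = 0.00554). The gap lay between the inner layers, with signals of 28.4 and 64.3 on the luminal arrays, against 516.5 and 930.7 on the duct suprabasal arrays. Luminal minus duct suprabasal cells was -3.67. The outer layers ran against the gap, with -0.52 in myoepithelial minus duct basal cells. The luminal signals lie near the filter level of 43.4 and 46.7, so the gland difference also depends on the number added before taking logs. The excess of the gland over the duct difference was between 1.99 and 3.61 over 20 alternatives. The second, dim Krt17 probe set was not fitted alone. Its layer difference was 2.84 in the gland and 2.01 in the duct.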

How the results depend on the processing

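All 6 genes passed the F test in every fit that left out 1 array. Of the recomputed differences of the 6 genes between populations, 1175 kept direction and call, 40 lost the call, 18 gained it and 27 changed sign, all in pairs that had not passed. Leaving out 1 array, S100a8 was between -1.21 and 1.06 in duct basal minus suprabasal cells, -0.50 and 0.48 in myoepithelial minus luminal, -1.39 and 0.87 in luminal minus duct suprabasal, -0.31 and 0.67 in duct basal minus luminal, and -1.40 and 0.86 in myoepithelial minus duct suprabasal cells. S100a9 was between -0.34 and 0.30 in luminal minus duct suprabasal cells. In myoepithelial minus luminal cells Krt6a was between -1.30 and 1.02 and Krt6b between -0.14 and 0.79. Other sign changes of S100a8 were 0.104 (pseudocount 1), 0.0994 (quantile) and 0.167 (median centring) in duct basal minus suprabasal, 0.0276 (pseudocount 1) in myoepithelial minus luminal, and 0.0484 (quantile) and 0.041 (centring) in luminal minus duct suprabasal cells. S100a9 was 0.305 (quantile) and 0.280 (centring) in luminal minus duct suprabasal cells. With myoepithelial array 1 left out along with duct suprabasal array 2, a choice made after seeing the data, S100a8 was 1.06 in duct basal minus suprabasal, 0.1004 in myoepithelial minus luminal, 0.873 in luminal minus duct suprabasal and 0.974 in myoepithelial minus duct suprabasal cells, S100a9 was 0.297 in luminal minus duct suprabasal cells, and 2 of the 6 genes passed the test of the layer difference. The causes were not tested.

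Between the duct layers 1 of the 6 genes passed, not 2, with a pseudocount of 48, quantile normalization, no filter, a filter at the 60th percentile, or only the 4 arrays compared. With pseudocount 1, 2 passed in myoepithelial against luminal cells. With only the 4 arrays compared, the genes passing were 242 (1524 with all arrays) between the duct layers, 36 (1413) in luminal against duct suprabasal cells, with 1 of the 6 genes, and 398 (1621) in myoepithelial against duct suprabasal cells; these fits have fewer arrays.

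Leaving out 1 array gave 4769 to 6620 genes in the F test, 3473 to 5280 (5 to 6 of the 6 genes) in myoepithelial cells against epidermis, 1713 to 3737 (4 to 6) in duct basal, 2976 to 4733 (5 to 6) in luminal and 2832 to 4203 (3 to 5) in duct suprabasal cells. It gave 451 to 1945 (1 to 2) between the duct layers, 1399 to 3456 (1 to 2) between the gland layers, 1136 to 2833 (2 to 2) in myoepithelial against duct basal, 315 to 1994 (3 to 4) in luminal against duct suprabasal, 1945 to 3845 (3 to 4) in duct basal against luminal, 606 to 1964 (3 to 4) in myoepithelial against duct suprabasal cells, and 1 of the 6 genes for the layer difference.

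Replicate numbers do not pair the arrays by the labels. Replicate differences of 2 populations correlated at 0.025 to 0.357. With the number as a block, Krt17 passed in duct suprabasal cells against epidermis (-0.98, adjusted p = 0.00600, 0.00450 to 0.486 over 21 alternatives), no other call of the 6 genes changed, and 2041 genes passed between the duct layers. With 2 arrays a population and signals of S100a8, S100a9 and Krt16 near the added 12 in the gland, small differences were not detectable.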
